A study of Mus musculus with 32 samples.

Results

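The Hox genes of the mouse lie in 4 clusters, and the open chromatin of these clusters was compared between liver endothelial cells, which line the blood vessels of the liver, and Kupffer cells, its resident macrophages. The members are ATAC-seq peaks whose centres fell in 4 fixed windows of the mm9 genome, which were chosen by position to hold the clusters: Hoxa on chromosome 6 from 52.08 to 52.23 Mb, Hoxb on chromosome 11 from 96.04 to 96.24 Mb, Hoxc on chromosome 15 from 102.74 to 102.88 Mb and Hoxd on chromosome 2 from 74.48 to 74.62 Mb. In all, 102 of the 229137 peaks were members, 52 of them from the endothelial list and 50 from the Kupffer list. ATAC-seq uses a transposase that cuts and tags accessible DNA, so that a peak marks a stretch of open chromatin. The 32 libraries came from male C57BL/6J mice on normal chow, taken at ZT10 or ZT22 (hours after lights on), either WT or with a REV-ERB a/b double knockout in adult hepatocytes, with 4 replicates of each cell type, time and genotype. REV-ERBs are repressors of the circadian clock. How the deletion was made in hepatocytes is not given in the sources used here, and the endothelial and Kupffer cells themselves were not the target of the deletion. Each cell type has a single list of peak positions with no library of origin, and how genotypes and times were pooled in it is not stated. Nothing therefore has a replicate, and no p-value is given.

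Hox genes encode homeodomain transcription factors that give cells their position along the head-to-tail axis and along the limbs. Within a cluster the genes stand in the order in which they are used: low-numbered genes are expressed earlier and nearer the head, and high-numbered genes later and nearer the tail. Silent Hox genes are kept closed by Polycomb complexes, and adult cells often keep the Hox pattern of the body region or lineage from which they came. In blood formation Hoxa9 and Hoxb4 are known for their part in stem and progenitor cells, and in vessels Hoxb5, Hoxd3 and Hoxa9 are known regulators of endothelial genes.

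All 38 listed Hox genes were found in the RefSeq gene table of GRCm38, a later assembly than that of the peaks, and only their order was used. Hoxa runs from Hoxa2 to Hoxa13 with rising position, whereas Hoxb, Hoxc and Hoxd start with Hoxb13, Hoxc13 and Hoxd13 and end with Hoxb1, Hoxc4 and Hoxd1. Positions along a window are therefore also given as the distance from the window bound on the side of the group 13 gene (the high bound in Hoxa and the low bound in the other 3). No peak was assigned to a gene or promoter, because no annotation of mm9 was used, and for the same reason neither the window label nor the cell types could be checked against marker genes. The clusters also hold 6 microRNA genes between their outer members. The main mature forms of 5 of them are shown, because their 2 seeds, bases 2 to 8 in capitals, recur in clusters that held very different numbers of peaks (RefSeq, GRCm38, written 5′ to 3′):
miR-196b-5p, from Hoxa: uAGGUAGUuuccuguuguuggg
miR-196a-5p, from Hoxb and again from Hoxc: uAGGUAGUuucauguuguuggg
miR-10a-5p, from Hoxb: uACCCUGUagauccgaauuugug
miR-10b-5p, from Hoxd: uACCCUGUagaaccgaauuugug

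The 4 clusters were not alike. Compared with the genome, Hoxa was rich in peaks of both lists and Hoxb in endothelial peaks, and Hoxc and Hoxd held fewer sites than either. A site here is 1 peak, or a set of peaks of both lists that overlap by at least 1 bp. It is called shared where both lists have a peak, and endothelial-only or Kupffer-only (restricted) where 1 list does. Hoxa held 29 sites, Hoxb 31, Hoxc 7 and Hoxd 9. Of the 76 sites together, 26 were endothelial-only, 24 Kupffer-only and 26 shared. A site missing from a list was not called there, which does not show that it was closed, and fewer open cells cannot be told apart from weaker opening in each cell.

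**Figure D1:**
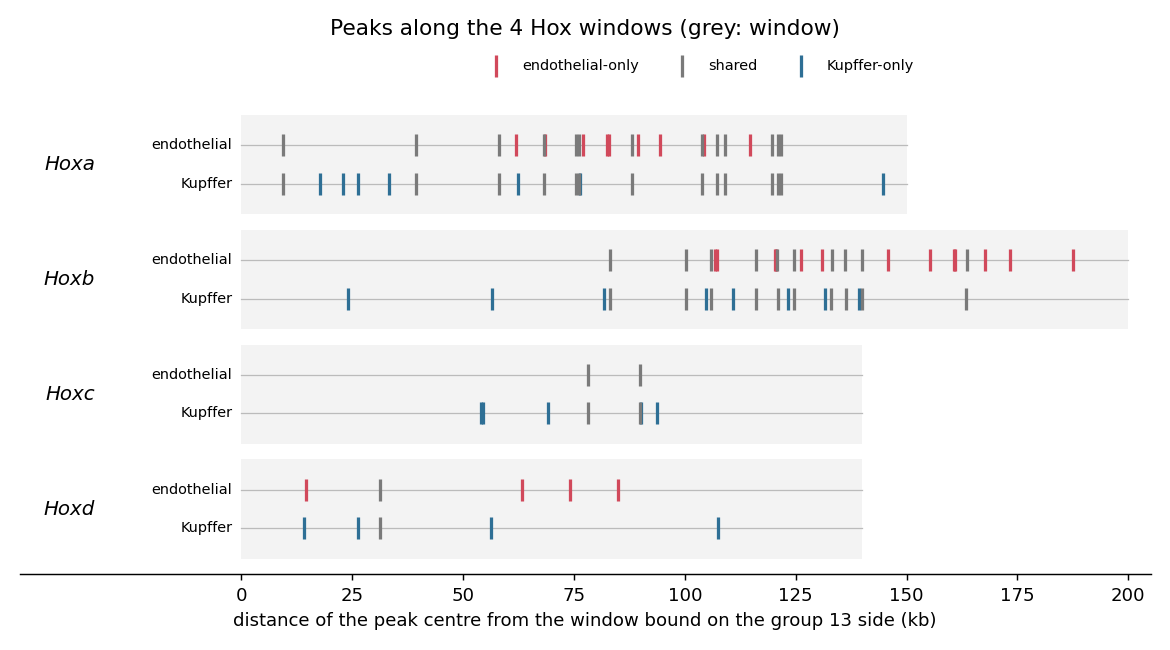
Each tick is the centre of 1 peak, placed by its distance in kb from the window bound on the side of the group 13 gene, with the endothelial list above the Kupffer list in each cluster. Sites crowd in Hoxa and Hoxb, Hoxc has no endothelial-only peak, and the Hoxb window has only endothelial-only and shared peaks beyond 140 kb.

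Kupffer-only sites made up less of the Hox clusters than of the genome, and endothelial-only sites more. They were 31.6% of the Hox sites (exact Clopper-Pearson 95% interval 21.4% to 43.3%), against 48.1% of the 174420 sites of chromosomes 1 to 19 and X. Endothelial-only sites were 34.2% (23.7% to 46.0%) against 21.8%, and shared sites 34.2% (23.7% to 46.0%) against 30.1%. The endothelial-only share fell to 30.2% with peaks of 1 list within 500 bp joined. It fell to 29.7% with peaks of both lists within 500 bp counted as shared. The genome was not recounted in these ways. The intervals cover counting error only and treat neighbouring sites as independent, which they need not be. Seen from the lists, 26 of the 52 endothelial peaks (50.0%) and 26 of the 50 Kupffer peaks (52.0%) were shared, where the genome gave 58.3% and 39.1%. The interval of the Kupffer value (37.4% to 66.3%) held the genome's 39.1%, and that of the endothelial value (35.8% to 64.2%) held 58.3%.

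Hoxb was the cluster with the most endothelial-only sites, 13 of 31 or 41.9% (24.5% to 60.9%), beside 8 Kupffer-only and 10 shared ones. Hoxa had the most shared sites, 13 of 29 or 44.8% (26.4% to 64.3%), beside 9 endothelial-only and 7 Kupffer-only ones. Hoxd was split evenly, with 4 endothelial-only, 4 Kupffer-only and 1 shared site. Its endothelial-only share, 44.4% (13.7% to 78.8%), was above that of Hoxb, which led by number only. In Hoxc no site was endothelial-only (0 of 7, with an upper limit of 41.0%), 5 were Kupffer-only (71.4%, 29.0% to 96.3%) and 2 were shared. Without peaks of the smallest common width the endothelial-only share was 20%, because a shared site lost its narrow Kupffer peak. For each kind of site the intervals of all 4 clusters overlapped, so these intervals do not separate single clusters from each other by the kind of site. Against the genome, the Kupffer-only intervals of Hoxa (24.1%, 10.3% to 43.5%) and Hoxb (25.8%, 11.9% to 44.6%) lay below its 48.1%. The endothelial-only interval of Hoxb lay above its 21.8%. Some endothelial-only peaks of Hoxb were close neighbours, and with peaks of 1 list within 500 bp joined its share fell to 34.6%. The genome was not recounted in that way, so whether the difference would hold was not tested. The other intervals of single clusters held the genome's shares.

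**Figure D2:**
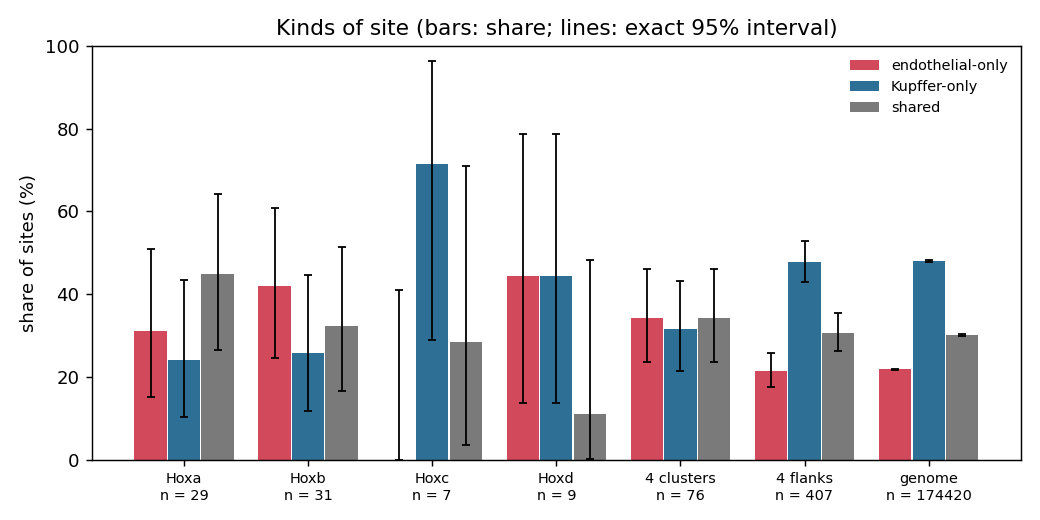
Bars give the share of sites (%) that were endothelial-only, Kupffer-only or shared in each cluster, in the 4 clusters together, in 500 kb on each side of them and over the genome, and lines give exact 95% intervals. Kupffer-only sites were 31.6% in the clusters, 47.9% in the flanks and 48.1% over the genome.

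The Hox clusters lacked the usual excess of Kupffer peaks. Across the genome there were 1.51 Kupffer peaks per endothelial peak, and in the 4 clusters 0.96 (95% interval 0.64 to 1.45). Hoxa had 22 endothelial and 20 Kupffer peaks, Hoxb 23 and 18, Hoxc 2 and 7, and Hoxd 5 and 5. The interval of the pooled ratio lay below the genome's value, and those of Hoxa (0.47 to 1.75), Hoxb (0.40 to 1.52), Hoxc (0.67 to 34.5) and Hoxd (0.23 to 4.35) each held it. These intervals treat the peaks of the 2 lists as independent, although a shared site puts a peak in both. Of the restricted sites alone, 48.0% were Kupffer-only in the 4 clusters (33.7% to 62.6%), against 68.8% over the genome. The interval of Hoxb (38.1%, 18.1% to 61.6%) also lay below the genome's share. Those of Hoxa (43.8%, 19.8% to 70.1%), Hoxc (47.8% to 100%) and Hoxd (15.7% to 84.3%) held it. Windows with at least as many endothelial as Kupffer peaks were 36.3% of all 12717 windows of 150 kb with a peak, and 12.4% of the 1345 that held at least the 42 peaks of Hoxa, both lists together. For Hoxb the same comparison gave 35.9% of all windows of 200 kb and 10.6% of the 2008 with at least 41 peaks. For Hoxd, whose 140 kb held 10 peaks, it gave 37.1% of all windows and 21% of 7562. Hoxc, with 9 peaks, had fewer endothelial than Kupffer ones, as did all but 21.8% of the 7972 windows with at least 9. This comparison was chosen after seeing the data. Taking windows by their Kupffer peaks alone, which favours windows rich in Kupffer peaks, gave lower shares, 5.64% for Hoxa and 6.80% for Hoxb.

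Hoxa was the most densely covered cluster. It had 146.7 endothelial peaks per Mb (exact Poisson 95% interval 91.9 to 222) and 133 Kupffer peaks per Mb (81.4 to 206), where the genome had 35.5 and 53.4. Hoxb had 115 endothelial (72.9 to 173) and 90.0 Kupffer peaks per Mb (53.3 to 142), and its Kupffer interval just held the genome's value. Of all windows of 150 kb with a peak, 5.48% held at least as many endothelial peaks as Hoxa and 20.2% at least as many Kupffer peaks. Of those of 200 kb, 9.24% and 32.8% reached the numbers of Hoxb. The median window of 150 kb held 5 endothelial and 7 Kupffer peaks, and that of 200 kb 6 and 9, so these shares set the clusters against different levels in the 2 lists. The 13 endothelial-only peaks of Hoxb were reached by 4.66% of windows and its 8 Kupffer-only peaks by 42.8%. The corresponding shares in Hoxa, with 9 and 7 peaks, were 7.49% and 39.8%.

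Hoxc and Hoxd held peaks in numbers that many windows reached. Hoxc had 14.3 endothelial (1.73 to 51.6) and 50.0 Kupffer peaks per Mb (20.1 to 103). At least as many endothelial peaks as in Hoxc were held by 75.5% of windows of 140 kb, and at least as many Kupffer peaks by 51.9%. Hoxd had 35.7 peaks per Mb in each list (11.6 to 83.3). Its 5 endothelial peaks were reached by 50.8% of windows and its 5 Kupffer peaks by 59.7%. The 4 endothelial-only peaks of Hoxd were reached by 29% of windows and its 4 Kupffer-only peaks by 53.6%, and the 5 Kupffer-only peaks of Hoxc by 47.7%. These are windows with a peak. Over all windows from the first to the last peak of a chromosome, the shares were 55.3% (endothelial) and 38.0% (Kupffer) for Hoxc and 37.2% and 43.7% for Hoxd, so which side of the middle Hoxd, and Hoxc for Kupffer peaks, fell on turned with the windows counted. For endothelial peaks, the interval of Hoxc lay below those of Hoxa and Hoxb, and that of Hoxd lay below that of Hoxa. For Kupffer peaks all 4 intervals overlapped.

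The surroundings of the clusters differed too. In the 500 kb on each side of Hoxa there were 49.0 endothelial peaks per Mb (36.3 to 64.8) and 76.0 Kupffer peaks per Mb (59.9 to 95.1). The endothelial interval of the cluster lay above that of its flanks, and the Kupffer intervals overlapped. The flanks of Hoxb, with 80.0 endothelial and 107 Kupffer peaks per Mb, had intervals that overlapped those of the cluster in both lists. Hoxc stood out in the other direction. Its flanks together had 71.0 endothelial (55.5 to 89.6) and 132 Kupffer peaks per Mb (110 to 157), and both intervals lay above those of the cluster. This held for the flank on the Hoxc4 side alone, with 104 (77.7 to 136) and 178 per Mb (143 to 219). The flank on the Hoxc13 side had 38.0 (22.9 to 59.3) and 86.0 per Mb (62.2 to 116), intervals that overlapped those of the cluster. Hoxd lay in a sparse region, with 15 endothelial and 8 Kupffer peaks in the whole 1000 kb of flank, or 15.0 (8.40 to 24.7) and 8.00 per Mb (3.45 to 15.8).

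**Figure D3:**
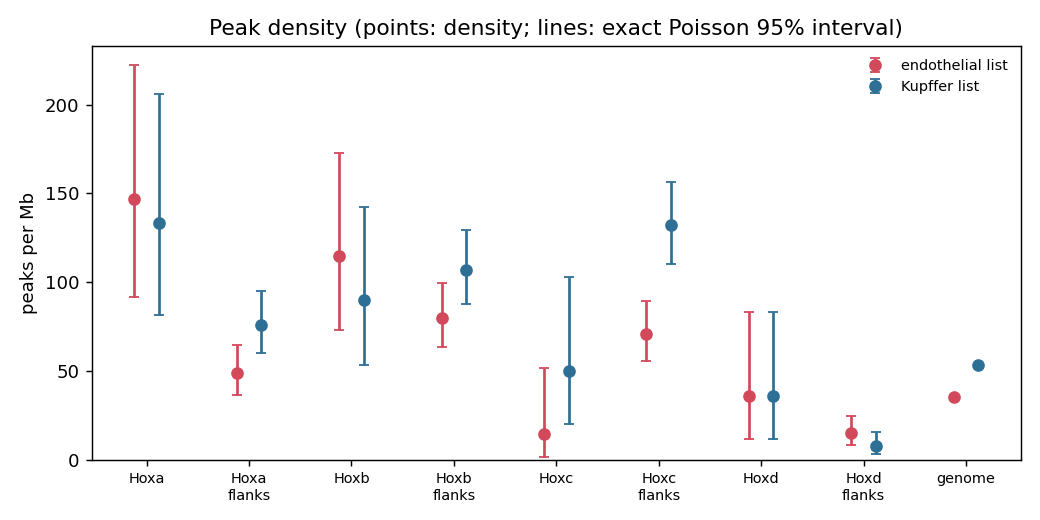
Points give peaks per Mb in each cluster, in both of its 500 kb flanks and over chromosomes 1 to 19 and X, for the endothelial and the Kupffer list, with exact Poisson 95% intervals. Hoxa lies above its flanks for endothelial peaks (146.7 against 49.0), and Hoxc below its flanks in both lists (14.3 against 71.0 and 50.0 against 132).

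In the flanks of all 4 clusters together 47.9% of 407 sites were Kupffer-only (43.0% to 52.9%) and 21.4% endothelial-only (17.5% to 25.7%). These shares were close to those of the genome, but single clusters had unlike flanks. Those of Hoxd held 17 sites, 52.9% endothelial-only (27.8% to 77.0%) and 11.8% Kupffer-only (1.46% to 36.4%). The intervals lay above the genome's 21.8% and below its 48.1%. Those of Hoxc held 11.4% endothelial-only sites (6.79% to 17.6%), below the genome's share. Beside Hoxc, the 500 kb on the side of Hoxc13 held 2 endothelial-only sites among 45, or 4.44% (0.54% to 15.1%), an interval below the genome's 21.8%. That interval overlapped those of Hoxc itself (0 of 7) and of the flank on the Hoxc4 side, which held 15 among 104 (14.4%, 8.30% to 22.7%). The 500 kb beyond Hoxd1 held 11 sites, of which 7 were endothelial-only (63.6%, 30.8% to 89.1%), 4 shared and none Kupffer-only (0 of 11, with an upper limit of 28.5%). The endothelial-only interval lay above the genome's share and the Kupffer-only one below it. Both intervals overlapped those of Hoxd itself, 13.7% to 78.8% for either restricted kind.

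Along Hoxa, the stretch on the Hoxa13 side carried Kupffer-only sites and the middle carried endothelial-only ones. The first site from that side, at chr6:52220564-52220788, was shared. The next 4 sites, between 17.7 and 33.3 kb from the bound, were all Kupffer-only. They formed the longest run of 1 kind in the cluster, over 15.8 kb at chr6:52196561-52212403, and held the widest Kupffer-only peak of Hoxa, 231 bp at chr6:52196561-52196791. The 9 endothelial-only sites began after that, at 61.9 kb, and ended at 115 kb from the bound. They were mixed with shared sites and 2 Kupffer-only ones, and the widest of them, 227 bp, lay at chr6:52135400-52135626.

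Toward Hoxa2, 3 shared sites in a row lay between chr6:52108209-52108563 and chr6:52110196-52110433. Beyond them a stretch of 22.8 kb without any peak, the longest in the cluster, led to a single Kupffer-only peak at chr6:52085158-52085369, the last site of the window. The endothelial list had no peak over 71.6 kb there, from 52036672 to 52108241, a stretch that runs past the window. The widest shared peaks of Hoxa were an endothelial peak of 325 bp at chr6:52171663-52171987 and a Kupffer peak of 312 bp at chr6:52120755-52121066.

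Along Hoxb, read from the group 13 gene, Kupffer-only sites again came first. The first 3 sites, at chr11:96064100-96064256, chr11:96096402-96096552 and chr11:96121749-96121899, were Kupffer-only. The first pair was separated by 32.1 kb, the longest stretch without a peak between sites of any of the 4 clusters. On the same side the endothelial list had no peak over 110 kb, from 96012527 to 96123017. Between 83.1 and 140 kb from the bound all 3 kinds alternated, with the widest shared peaks of the cluster near the end of that stretch (267 bp in the endothelial list at chr11:96179834-96180100 and 242 bp in the Kupffer list at chr11:96179835-96180076). From 146 kb on, toward Hoxb1, 7 of the 8 remaining sites were endothelial-only. Their longest run, 4 sites over 15.3 kb, lay at chr11:96185626-96200949, and 1 shared site at chr11:96203371-96203642 divided it from the last 3. The window's last site, at chr11:96227358-96227508, was endothelial-only and of the smallest common width, just over 150 bp.

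Hoxc had its sites in the middle of the window and none near either end. The 54.0 kb on the Hoxc13 side and the 46.2 kb on the Hoxc4 side held no peak of either list. From the Hoxc13 side, 3 Kupffer-only sites came first, at chr15:102793988-102794138, chr15:102794292-102794499 and chr15:102809182-102809333. They were followed by both shared sites, whose endothelial peaks were 260 bp at chr15:102818012-102818271 and 276 bp at chr15:102829706-102829981. A pair of Kupffer-only sites closed the order, the nearer of them only 89 bp from the second shared endothelial peak. The endothelial list held no peak over 245 kb, from 102573367 to 102818011, and the Kupffer list none over 201 kb, from 102592629 to 102793987. These were the longest stretches without a peak that touched any of the 4 windows.

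Hoxd held single, narrow peaks at wide spacing. On the Hoxd13 side a Kupffer-only peak at chr2:74494032-74494187 and an endothelial-only peak at chr2:74494501-74494651 lay 313 bp apart. They were followed by a Kupffer-only peak at chr2:74506186-74506336 and the only shared site, at chr2:74511152-74511393. After 24.7 kb without a peak came a Kupffer-only peak at chr2:74536124-74536274 and then a run of 3 endothelial-only peaks over 21.6 kb at chr2:74543299-74564907. The last site, toward Hoxd1, was a Kupffer-only peak at chr2:74587429-74587581. Beyond it the Kupffer list had no peak over 76.2 kb, and from the last endothelial peak the endothelial list had none over 98.9 kb.

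Read from the group 13 side, the first restricted site was Kupffer-only in the 3 clusters that had both kinds. In these clusters the median Kupffer-only site lay nearer to the window bound on that side than the median endothelial-only one. In Hoxa 4 of 7 and in Hoxb 4 of 8 Kupffer-only sites lay on the group 13 side of every endothelial-only site, and in Hoxd 1 of 4 did, by less than 1 kb. The median Kupffer-only site lay at 22.2% of the window in Hoxa, 53.9% in Hoxb and 29.4% in Hoxd, and the median endothelial-only site at 55.3%, 72.9% and 49.1%. The kinds overlapped in each of these clusters, and only in Hoxb did endothelial-only sites (7 of 13) lie beyond the last Kupffer-only one. In Hoxa and Hoxd the last restricted site was Kupffer-only.

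Cut into 3 equal parts, the windows gave 9 restricted sites in the part on the group 13 side, of which 8 were Kupffer-only (88.9%, 51.8% to 99.7%). Among all restricted sites of the genome 68.8% were Kupffer-only, which lies within that interval. In the middle part 12 of 28 were Kupffer-only (42.9%, 24.5% to 62.8%), and in the part on the low-numbered side 4 of 13 (30.8%, 9.09% to 61.4%). Both of the latter intervals lay below the genome's share, and that of the group 13 side overlapped each of them. The value of the low-numbered side rested on Hoxb, which had 7 endothelial-only sites and 1 Kupffer-only site there: without Hoxb it was 60.0%. Parts of a window need not be parts of a cluster, since how far the windows reach past the outer genes was not measured.

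**Figure D4:**
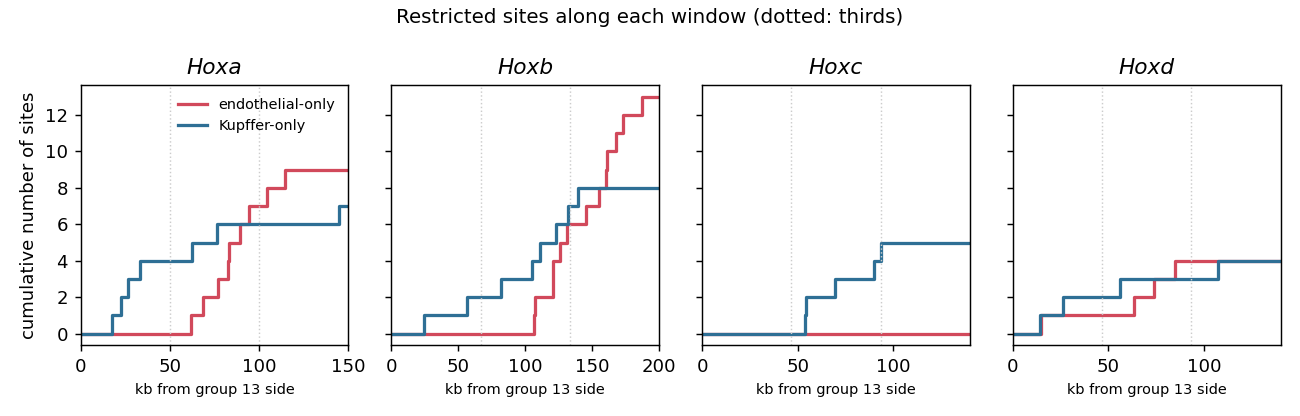
Lines count the endothelial-only and Kupffer-only sites met along each window, by distance in kb from the bound on the side of the group 13 gene, with dotted lines between the 3 equal parts of the window. In Hoxa and Hoxb the Kupffer-only line rises first and the endothelial-only line overtakes it, ending at 9 against 7 and 13 against 8 sites.

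Neighbouring sites were of the same kind in 29 of 72 pairs (40.3%, 28.9% to 52.5%), where the genome gave 47.6%. The interval held the genome's share. The longest run of 1 kind was 4 sites. Of the 26 endothelial-only peaks 7 lay within 500 bp of a Kupffer peak and 23 within 10000 bp, with a median distance of 2504 bp. These were 26.9% (11.6% to 47.8%) and 88.5% (69.8% to 97.6%), against 17.5% and 70.6% of the endothelial-only peaks of the genome, whose median distance was 3670 bp. Of the 24 Kupffer-only peaks 5 and 16 did, with a median of 5346 bp to the nearest endothelial peak. These were 20.8% (7.13% to 42.2%) and 66.7% (44.7% to 84.4%), against 14.7% and 68.2% over the genome, where the median was 4802 bp. The genome's shares lay within all 4 intervals. The most remote restricted peak was a Kupffer-only one, 51573 bp from any endothelial peak.

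Shared peaks of the Hox clusters were wider than restricted ones, and restricted ones were often of the smallest width. The smallest common width is just over 150 bp in both lists, which hold almost no narrower peak, and the widest Hox peak had 325 bp. The median width of endothelial peaks was 241.5 bp where shared, against 210 bp over the genome. Where endothelial-only, it was the smallest common width itself, against 171 bp. That of Kupffer peaks was 211 bp where shared and 151.5 bp where Kupffer-only, against 207 and 194 bp. Of the Kupffer-only peaks, 12 of 24 had the smallest common width (50.0%, 29.1% to 70.9%), where the genome had 27.4%. Of the endothelial-only peaks, 15 of 26 were (57.7%, 36.9% to 76.6%), against 44.5%, which lies within the interval. The peaks of both lists at a shared site had their centres a median of 32.5 bp apart (1.5 to 158.5 bp over 26 endothelial peaks), against 24.5 bp over the genome.

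Widths are also given by cluster. The median width in Hoxa was 211.5 bp in the endothelial and 226 bp in the Kupffer list, and in Hoxb 154 bp and the smallest common width. In Hoxd none of the 8 restricted peaks was wider than 156 bp, and the single shared site paired an endothelial peak of 233 bp with a Kupffer peak of the smallest common width. In Hoxc both endothelial peaks, of 260 and 276 bp, were wider than each of the 7 Kupffer peaks, of which the widest measured 208 bp. The lists carry no height, so width is the only measure of a peak's size at hand, and it also depends on how the libraries were merged, which was not tested.

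**Figure D5:**
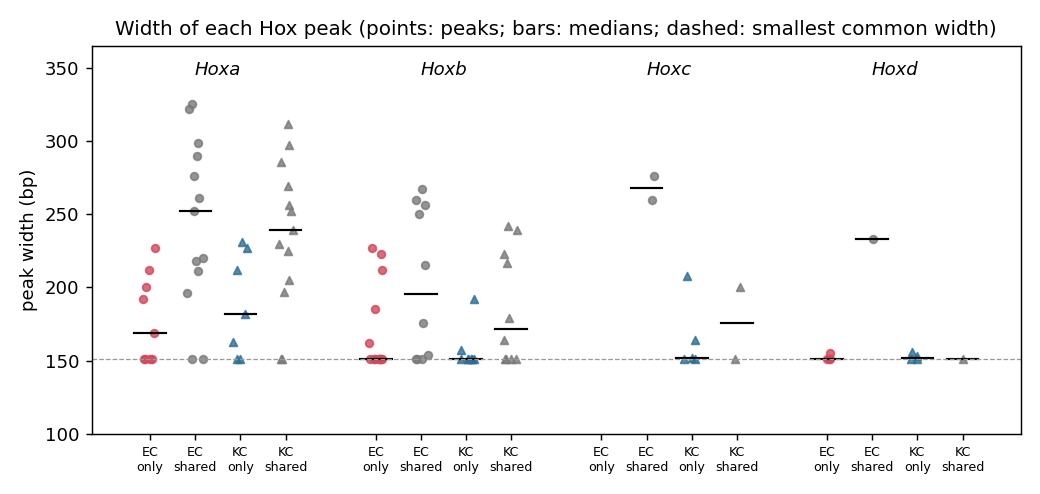
Each point is the width in bp of 1 Hox peak (circles endothelial list, triangles Kupffer list), by cluster and by whether it was restricted or shared, with black bars at the medians and a dashed line at the smallest common width. The widest peak, of 325 bp, is a shared one of Hoxa, and the restricted peaks of Hoxd reach no more than 156 bp.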

How the data were processed

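The authors deposited 2 peak lists, 1 per cell type, of 3 columns each (chromosome, start and end in bp). Both lists are named nfr and unique peaks. How that choice of peaks bears on their widths, and on neighbouring peaks counted as separate sites, was not tested. The labels give 16 libraries per cell type, but not which of them entered each list. The submitters' processing notes name Bowtie, HOMER and mm9. Versions, peak threshold, transposase offset and the pooling of libraries are not stated in the labels, and depth is unknown. The smallest common peak width was 151 bp, with 2 endothelial and 3 Kupffer peaks below it. Coordinates are printed counted from 1.

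Overlaps and counts were computed with Python 3.11.15 and NumPy 2.4.6, gave the same numbers of shared peaks as bedtools 2.31.1, and were tested on simulated data with known kinds of site. Intervals are exact 95% binomial and Poisson intervals (SciPy 1.17.1). Ratios take theirs from the binomial interval. Windows of a cluster's length were counted from position 1 of chromosomes 1 to 19 and X and kept where they held a peak. The named peaks were the widest of each kind, the first and last, the longest run and those beside the longest gap. In Hoxc and Hoxd, other peaks were named after their values were seen. Windows, members and comparisons were chosen with earlier results of these data known.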

Additional observations from a re-analysis of the deposited data

How the results depend on the processing

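Of 272 alternative values, 265 stayed within the 95% interval of the reported value (for window ranks, within 1.5 times it) and 7 moved further. Some of the 265 could not move: a changed overlap rule leaves the number of peaks, and so densities and ratios, as they were. The genome's shares of each kind of site were not recomputed under the alternatives. The count therefore does not show whether differences from the genome would hold under them. Without peaks of the smallest common width or less, the density of the 4 clusters fell to 50.8 endothelial and 47.6 Kupffer peaks per Mb, beside 23.3 and 39.5 over the genome, that of Hoxb fell to 60.0 and 40.0, and the shared part of Hoxd fell to 0%. The Kupffer-only share of restricted sites on the group 13 side rose to 100% when a peak of the other list within 500 bp made a site shared, and also without Hoxd. A further 8 values moved by over 1.5 times within wide intervals. Without the narrowest peaks, Hoxc went from 0 to 20% endothelial-only, from 50.0 to 28.6 Kupffer peaks per Mb and from 3.50 to 2.00 Kupffer peaks per endothelial peak, and Hoxd from 35.7 to 14.3 peaks per Mb in both lists. The 20% came from a shared site of Hoxc whose narrow Kupffer peak was removed, which left its endothelial peak alone. The only shared site of Hoxd was lost in the same way. The shared part of Hoxb fell from 32.3% to 20.6% with an overlap of 50% of both peaks, that of Hoxd rose from 11.1% to 25.0% when a gap of up to 500 bp still made a site shared, and the Kupffer-only share on the low-numbered side rose from 30.8% to 60.0% without Hoxb. Leaving out each cluster in turn, and all but 2 of the alternatives for the order, were added after seeing the data. No paired analysis was possible because no peak carries a value for a library, which also means that no replicate could be left out. A stricter peak threshold was not run, as peaks carry no score. With 7 sites in Hoxc and 9 in Hoxd, shares there are loosely bounded.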
